A study of Mus musculus with 12 samples.

Results

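H3K36me2 peaks inside protein-coding genes shorter than 200 kb numbered 52 of 231 in control somatosensory cortex (22.5%, Wilson 95% interval 17.6 to 28.3) and 691 of 3491 in conditional knockout (cKO) cortex (19.8%, 18.5 to 21.1). A peak was taken when its midpoint lay in the body of a protein-coding gene and more than 5000 bp from every protein-coding gene start or end, and when the longest such gene was shorter than 200 kb. This rule uses position alone, so enrichment, q-values, widths and overlap between genotypes are not part of it.

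The study immunoprecipitated chromatin with an antibody to H3K36me2 from somatosensory cortex of mice aged 2.5 months and sequenced it beside input chromatin, with 3 libraries of each kind per genotype and 12 in all. The knockouts were labelled Nsd1Nex-cKO, in which Cre under the Nex promoter reaches postmitotic forebrain excitatory neurons, so that glia, interneurons and vessels of the same tissue keep Nsd1. Of the 3 control animals in each group of libraries, 2 were labelled Nsd1fl/+ and 1 Nsd1fl/fl, and whether controls carried Cre was not stated there. The peak names in the deposited control list read WT, and which of these genotypes that name stands for was not stated. The authors deposited 1 peak list per genotype, made from its libraries together, so no value below has a replicate error and none is tested across animals. In such bulk tissue, a change in the number of cells with the mark and a change in the mark per cell cannot be told apart. Nsd1 itself (chromosome 13, 55209782 to 55318325, 109 kb) held 0 peaks in either list, which checks neither its deletion nor the labels, and peak positions offer no check of the tissue against marker expression.

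H3K36me2 is a histone mark set by methyltransferases of the NSD family and by ASH1L, and it spreads broadly over active and intergenic chromatin. It differs from H3K36me3, which SETD2 sets in the bodies of transcribed genes. H3K36me2 recruits the DNA methyltransferase DNMT3A and restrains the Polycomb enzyme that methylates lysine 27 of the same histone.

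Gene starts and ends were avoided by the choice of peaks, but some genes have further transcript starts inside their bodies, and these are the sites where sequence could be set beside the peaks. Among 32851 RefSeq start windows, 4 cKO peaks and 1 control peak touched the 250 bases before an annotated start. The windows are shown 5′ to 3′ on the strand of the gene that starts there, from RefSeq (GRCm38.p6, the assembly whose chromosomes mm10 shares). Capitals mark the bases inside the cKO peak.
C130026I21Rik, chr1:85270567-85270816, minus strand: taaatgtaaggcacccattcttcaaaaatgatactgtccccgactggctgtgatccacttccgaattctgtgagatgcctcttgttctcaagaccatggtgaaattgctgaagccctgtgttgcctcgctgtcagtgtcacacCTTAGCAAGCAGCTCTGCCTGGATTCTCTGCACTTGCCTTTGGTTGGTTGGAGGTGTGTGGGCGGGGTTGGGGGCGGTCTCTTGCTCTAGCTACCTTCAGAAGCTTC
Gm33862, chr11:3136826-3137075, plus strand: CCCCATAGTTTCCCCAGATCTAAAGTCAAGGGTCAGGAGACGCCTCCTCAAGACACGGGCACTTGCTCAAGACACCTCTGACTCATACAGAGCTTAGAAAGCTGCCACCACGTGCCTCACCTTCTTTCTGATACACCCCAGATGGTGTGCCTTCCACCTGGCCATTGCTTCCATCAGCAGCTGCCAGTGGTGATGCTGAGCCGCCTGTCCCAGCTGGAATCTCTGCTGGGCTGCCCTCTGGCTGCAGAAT
Gm39881, chr2:93312242-93312491, plus strand: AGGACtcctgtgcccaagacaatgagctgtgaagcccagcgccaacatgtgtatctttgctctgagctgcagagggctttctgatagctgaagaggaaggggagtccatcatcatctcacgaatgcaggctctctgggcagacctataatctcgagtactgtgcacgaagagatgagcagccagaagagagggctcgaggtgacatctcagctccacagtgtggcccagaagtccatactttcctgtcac
Rap1gap, chr4:137707255-137707504, plus strand: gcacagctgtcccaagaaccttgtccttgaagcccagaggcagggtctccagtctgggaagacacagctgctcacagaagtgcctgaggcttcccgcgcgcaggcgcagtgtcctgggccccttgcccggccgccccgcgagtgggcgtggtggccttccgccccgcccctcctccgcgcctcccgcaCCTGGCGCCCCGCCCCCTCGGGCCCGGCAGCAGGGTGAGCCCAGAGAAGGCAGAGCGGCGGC

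The C130026I21Rik start, inside the longer gene Gm38510, was the site touched in both lists. The cKO peak (chromosome 1, 85270087 to 85270673, fold 1.86) covered 107 of the 250 bases and the control peak (85270021 to 85270665, fold 1.89) covered 99. Both were weak calls, with a −log10 q of 0.458 in cKO and 0.464 in controls. Gm33862 is a long noncoding RNA gene inside the centrosomal protein gene Sfi1, and its window lay wholly inside a cKO peak of 930 bp (fold 1.44, −log10 q 0.997). Rap1gap encodes a GTPase activator of Rap1, and its cKO peak (chromosome 4, 137707443 to 137707592, fold 2.99, −log10 q 0.250) covered 62 bases before an internal start. That window had a GC content of 72.8% and 20 CpG sites, against 51.6% and 5 at C130026I21Rik. In Tspan18 the cKO peak reached only 5 bases of the window of Gm39881, with a fold of 2.98. Within 1000 bp of any annotated start lay 9 of 691 cKO peaks (1.30%, 0.687 to 2.46), and 1.20% of the eligible sequence lay as near. In controls 3 of 52 did (5.77%, 1.98 to 15.6), 1 in Gm38510 and 2 in Sp140. The other cKO peaks near such starts were in Per2, a circadian clock gene, in the metabolic kinase gene Pdk2, in the reelin receptor gene Lrp8, and a pair in Sp140, all named after their values were seen.

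In cKO cortex the highest fold enrichment, the ratio of immunoprecipitated reads to the caller's local background as given by the authors, was 5.45 in Vstm4, a membrane protein gene (chromosome 14, 32878654 to 32878820). Kif3c, which encodes a kinesin motor of neurons, followed at 4.60 (chromosome 12, 3376159 to 3376305). Next came the DNA damage checkpoint kinase gene Chek2 at 4.49 (chromosome 5, 110847978 to 110848152) and Bckdha, which encodes a subunit of the enzyme that breaks down branched-chain keto acids, at 4.48 (chromosome 7, 25650737 to 25650891). All 15 peaks of highest fold had a q-value, the caller's p adjusted over the genome, under 0.05. In the whole cKO list 18.4% did. Fold and q-value come from the same reads, so a choice by fold is not independent of the q-value. None of the 15 overlapped a control peak, and in the whole cKO list 2.81% did.

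Lower folds followed in the other genes of the 15. The magnesium transporter gene Slc41a2 had a fold of 4.43 (chromosome 10, 83249470 to 83249639). The sodium-proton exchanger gene Slc9a8 had 4.19. Tbc1d9b, of a family of Rab GTPase activators, had 4.27, and Borcs5, a subunit of the complex that positions lysosomes, had 4.13. These 4 peaks were between 147 and 181 bp wide. Sltm had a fold of 4.43. Further peaks lay in Pou2f2, which encodes a POU transcription factor (4.06), Pcbp2, which encodes an RNA-binding protein (4.03), and the zinc finger gene Zfp936 (3.97). Cercam, an adhesion protein gene, had 4.203 and A630001G21Rik had 3.997.

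The strongest cKO calls by q-value were a different selection, with 2 peaks in common, those in Kif3c (−log10 q 13.9) and Slc9a8 (7.79). The highest −log10 q, 14.1, belonged to Smo, the Hedgehog signal transducer gene (chromosome 6, 29747912 to 29748527), at a fold of only 1.54 over 616 bp. Gm525 had 10.4 at a fold of 1.79. The sodium-calcium exchanger gene Slc8a3 had 10.8 at a fold of 2.77 (chromosome 12, 81278729 to 81278883). The peaks in Smo and Gm525 were the only 2 with a fold under 2 among the 21 in these genes that reached a −log10 q of 5 in cKO. The remaining 5 of the 10 strongest calls were in Coro2b, which encodes an actin-binding coronin (−log10 q 8.60, fold 3.78), Taf1, the largest TFIID subunit gene (7.98, 3.50), the collagen receptor gene Mrc2 (7.08, 3.84), the trafficking gene Avl9 (6.91, 3.72) and the atypical cadherin gene Fat1 (6.45, 3.61).

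In control cortex, 3 genes, Sfi1 (19 peaks), Sp140 (5) and Gm38510 (4), held 28 of the 52 peaks, with folds of 1.37 to 2.24. All 28 had at least 3 peaks of either list as neighbours within 100 kb (53.8%, 40.5 to 66.7), and 49.8% of the whole control list did. In cKO 56 peaks had as many neighbours (8.10%, 6.29 to 10.4), near the 8.25% of the whole cKO list. The other 24 lay singly in 24 genes, with folds of 1.61 to 3.995. Their highest values were 3.995 in Litaf, a gene of late endosomes and lysosomes (chromosome 16, 10986447 to 10986593), 3.21 in the actin nucleator gene Spire1, 3.20 in Abcc1, a drug and glutathione conjugate exporter gene, and 3.07 in Acap2, an Arf GTPase activator gene. Further peaks lay in Fbxo36 (3.06), Xpnpep1 (2.95), Zfp980 (2.76), Trub1 (2.72), Cnot4 (2.64), Cryz (2.61), the sodium channel gene Scn1a (2.58), Rex2 (2.48) and the flippase gene Atp9b (2.46). Support for these calls was low: the 15 control peaks of highest fold ran from a −log10 q of 0 to 0.818, and 0 of the 15 had a q-value under 0.05. In the whole control list 9.96% did. The single control peak in these genes with a q-value under 0.05 lay in Sfi1 (chromosome 11, 3186274 to 3186584, −log10 q 2.10, fold 1.72).

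**Figure D1:**
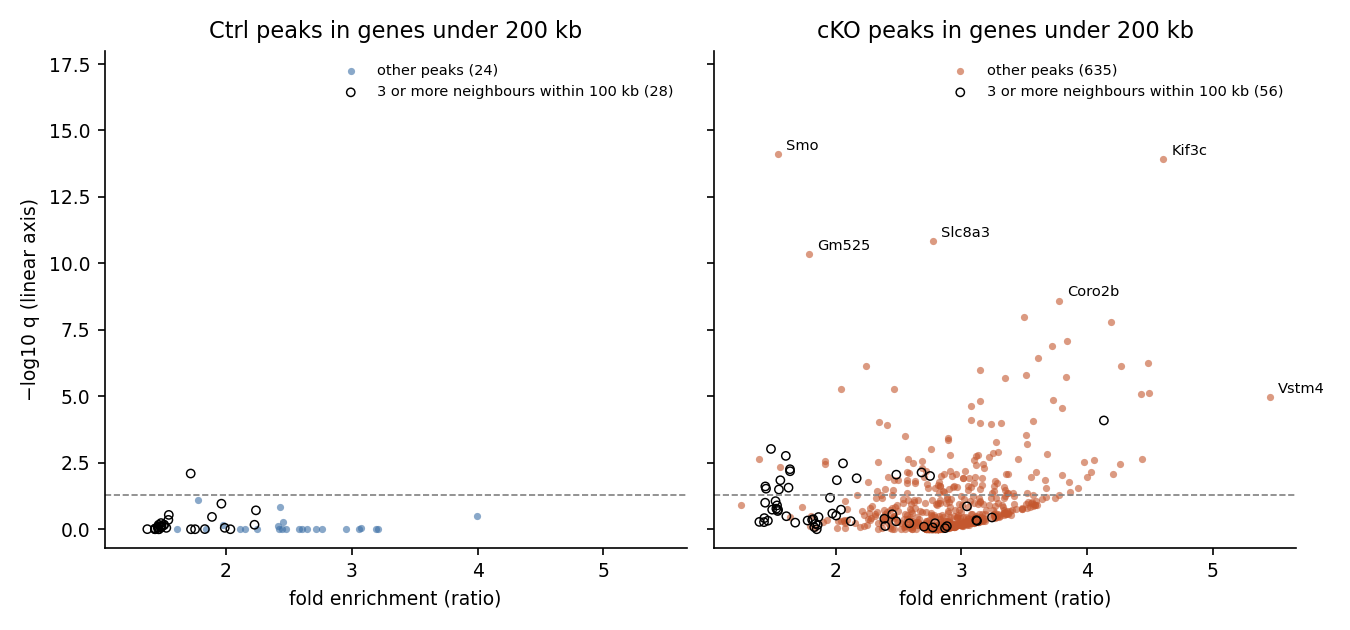
Fold enrichment against −log10 q for each control peak (left) and each cKO peak (right) inside genes shorter than 200 kb; open circles are peaks with at least 3 others of either list within 100 kb, and the dashed line marks a q-value of 0.05. In controls 1 of 52 peaks lies above the line, and in cKO 153 of 691 do, with Smo and Gm525 high at folds under 2.

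The median fold was 1.93 in controls (95% interval from order statistics 1.61 to 2.24, range 1.37 to 3.995) and 2.84 in cKO (2.81 to 2.87, range 1.25 to 5.45). Over the whole lists the medians were 2.18 and 2.82. The lowest −log10 p was 3.08 in the control list and 3.02 in the cKO list, so weaker sites are absent from both medians. The lower end of the cKO interval, 2.81441, was also the exact fold of peaks with a −log10 q of 0, such as those in Kcnh2 and Nr5a2. The cKO median therefore lay near the fold of peaks with the least support. Each list was scored against its own background, so the medians of the 2 lists are set side by side without a test. The 28 control peaks in Sfi1, Sp140 and Gm38510 had a median fold of 1.51, and the other 24 had 2.47. In cKO the 56 peaks with neighbours had a median fold of 1.85 and the other 635 had 2.86. Median widths were 316 bp in controls and 254 bp in cKO. The narrowest width in both lists was 147 bp, held by 2 of 52 control and 84 of 691 cKO peaks of these genes. In the whole lists 14 of 231 and 459 of 3491 peaks had it, so it is not particular to these genes.

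Of the 691 cKO peaks, 153 had a q-value under 0.05 (22.1%, Wilson 95% interval 19.2 to 25.4), where the whole cKO list gave 18.4%. Peaks in genes of 200 kb and more gave 12.4% (9.48 to 16.1, n = 378), peaks within 5000 bp of a gene start or end 25.8% (22.4 to 29.6, n = 566) and the peaks elsewhere 15.9% (14.3 to 17.6, n = 1856). The intervals for genes shorter and longer than 200 kb did not overlap. A −log10 q of at least 2 was reached by 89 cKO peaks (12.9%), with 10.7% in the whole list. In controls 1 of 52 peaks had a q-value under 0.05 (1.92%, 0.340 to 10.1) and the same peak had a −log10 q of at least 2, with 9.96% and 8.66% in the whole list. Weak calls with q-values from 0.5 upwards made up 43 control peaks (82.7%, whole list 68.0%) and 299 cKO peaks (43.3%, whole list 50.1%).

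Within the cKO peaks the share with a q-value under 0.05 changed with the length of the host gene. It was 24.2% in hosts of 10 to 50 kb (n = 236), 23.1% at 50 to 100 kb (n = 242) and 26.1% at 100 to 150 kb (19.4 to 34.1, n = 134). In hosts of 150 to 200 kb it was 6.33% (2.73 to 14.0, n = 79), an interval below those of the 3 shorter classes. The 5 peaks of that class were in Gm38510 (−log10 q 2.48), Crybg1 (1.31), the germ cell gene Tex14 (3.03), Tango6 (3.29) and Frmpd3 (1.60), named because they are few. Median folds hardly moved across the 4 classes, from 2.83 to 2.88. They were also near 2.83 in longer genes, 2.82 near gene starts or ends and 2.82 outside genes. The median fold therefore says little about differences between these classes.

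**Figure D2:**
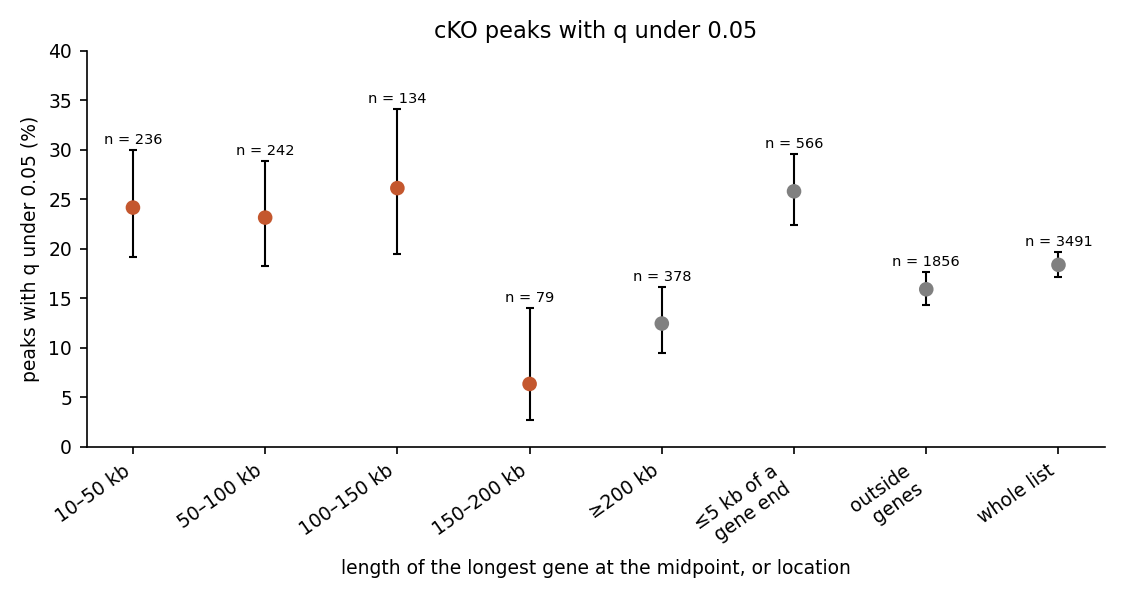
Percentage of cKO peaks with a q-value under 0.05 by host gene length (4 orange points), in longer genes, near gene starts or ends, outside protein-coding genes and in the whole list (grey points), with Wilson 95% intervals and numbers of peaks. Hosts of 150 to 200 kb give 6.33%, below the 23.1% to 26.1% of shorter hosts.

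Peaks were also denser in shorter host genes. Eligible sequence, the bases where a midpoint would have counted, came to 447 Mb in genes shorter than 200 kb, and cKO peaks fell there at 1.54 per Mb (exact Poisson 95% interval 1.43 to 1.66). In genes of 200 kb and more, over 407 Mb, the density was 0.928 (0.837 to 1.03), which gives a ratio of 1.66 (exact 95% interval 1.47 to 1.89). Outside protein-coding genes and more than 5000 bp from them, noncoding genes included, it was 1.22 (1.16 to 1.28). Within 5000 bp of a gene start or end it was higher, at 1.73 (1.59 to 1.88), and the density in genes shorter than 200 kb was 0.893 times that (0.798 to 0.999). Intervals here and below cover counting error and treat peaks as independent.

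By host length, the cKO density was 1.92 per Mb (1.68 to 2.18) at 10 to 50 kb and 1.64 (1.44 to 1.86) at 50 to 100 kb. It was 1.29 (1.08 to 1.52) at 100 to 150 kb and 1.08 (0.858 to 1.35) at 150 to 200 kb. Neighbouring classes had overlapping intervals, while the shortest hosts had 1.77 times (1.37 to 2.32) the density of the longest. Counting only peaks with a q-value under 0.05, that ratio was 6.77 (2.74 to 21.6), from 57 and 5 peaks. In controls the density was 0.116 per Mb (0.0868 to 0.152), and 0.0536 (0.0344 to 0.0798) without peaks that had at least 3 neighbours. Without those peaks the 4 length classes held 10, 5, 7 and 2 control peaks, too few to order.

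**Figure D3:**
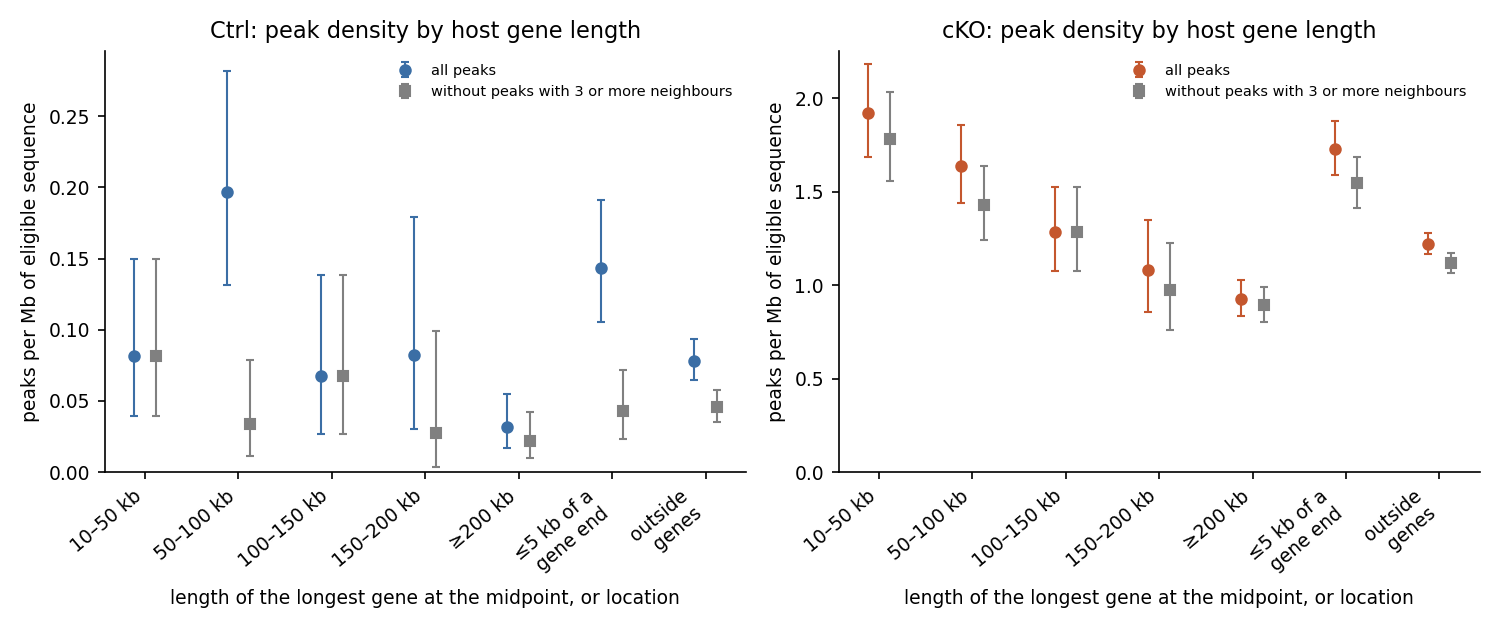
Peaks per Mb of eligible sequence by length of the host gene and for the other locations, in control (left) and cKO (right), with exact Poisson 95% intervals; grey squares leave out peaks with at least 3 others within 100 kb. The cKO density falls from 1.92 per Mb in hosts of 10 to 50 kb to 1.08 in hosts of 150 to 200 kb and 0.928 in longer genes.

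On the X chromosome 10 cKO peaks lay in such genes, 0.532 per Mb (0.255 to 0.978) against 1.59 (1.48 to 1.72) on autosomes, a ratio of 0.334 (0.159 to 0.618). Of the 10, 5 had a q-value under 0.05 (21.7% on autosomes), among them the peak in Taf1 described above. Those in 2010106E10Rik, Frmpd3 and the guanine exchange factor gene Arhgef6 had a −log10 q of 1.52, 1.60 and 1.73. In controls 0 lay on X, where the count limits the density to at most 0.196 per Mb. The Y chromosome held 0 in both lists, but only 1.37 Mb of it was eligible. The upper limit there was 2.70 per Mb, above the cKO density of 1.54 over all eligible sequence, so this count shows no depletion. The labels used here give no sex. Among autosomes the cKO density was highest on chromosomes 11 (2.32, 1.78 to 2.98) and 8 (2.26, 1.65 to 3.02) and lowest on chromosomes 13 (1.02, 0.606 to 1.62) and 18 (1.03, 0.576 to 1.70). Sfi1 lies on chromosome 11 and gave 20 of its 61 peaks.

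The 691 cKO peaks lay in 632 protein-coding genes, 4.96% of the 12740 with eligible sequence, and the 52 control peaks in 29, or 0.228%. Counting for each peak the longest gene, 589 of 626 hosts held 1 cKO peak, 34 held 2 and 3 held more. The median host was 66.3 kb long in cKO (60.7 to 72.6) and 71.5 kb in controls (33.8 to 112), against 30.6 kb over all genes with eligible sequence. A longer gene offers more eligible sequence, so its number of peaks can be larger at a lower density.

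The 3 hosts with more than 2 cKO peaks were Sfi1 with 20 peaks (folds 1.39 to 1.64), Gm38510 with 8 (1.68 to 2.06) and the nuclear body protein gene Sp140 with 6 (1.61 to 2.01). The same 3 held the most control peaks. Their peaks were also the widest, up to 1624 bp in controls (chromosome 11, 3183804 to 3185427) and 1324 bp in cKO (3176873 to 3178196), both in Sfi1. In the 34 hosts with 2 cKO peaks, the midpoints lay 1.71 to 78.5 kb apart with a median of 11.3 kb, and in 8 of them under 5 kb apart. Examples, chosen after their values were seen, were P4ha1, which encodes a collagen prolyl hydroxylase subunit (folds 3.24 and 3.73, 4.06 kb apart), Borcs5 (3.12 and 4.13, 15.5 kb), the growth factor gene Bmp7 (2.81 and 3.07, 44.7 kb) and the axonal kinesin gene Kif5c (2.79 and 3.02, 43.5 kb). At least 1 peak of the pair had a q-value under 0.05 in 9 of the 34. A pair offers 2 peaks, and of all 691 cKO peaks taken singly 22.1% had such a q-value.

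Strand was known for the hosts of 556 of 691 cKO peaks. Of these, 282 lay nearer the start of the gene than its end (50.7%, 46.6 to 54.9), and 50.04% of the eligible sequence did. For peaks with a q-value under 0.05 it was 68 of 119 (57.1%, 48.2 to 65.7). In controls 12 of 23 lay nearer the start (52.2%, 33.0 to 70.8). No lean of the peaks towards either end was detectable at these numbers. Kif3c (26.8% of the gene's length from its start), Chek2 (24.1%), Vstm4 (26.6%), Bckdha (27.5%) and Slc9a8 (19.6%) had their peaks in the part near the start, whereas Borcs5 (92.2%), Tbc1d9b (87.8%) and Slc41a2 (82.5%) had theirs near the end. Exons and introns were not analysed here.

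Between genotypes, 27 of 52 control peaks overlapped a cKO peak (51.9%, 38.7 to 64.9), with 42.4% in the whole control list, and 28 of 691 cKO peaks overlapped a control peak (4.05%, 2.82 to 5.79), with 2.81% in the whole cKO list. Of the 27, 17 lay in Sfi1, Gm38510 and Sp140. The other 10 lay in 10 genes and had no crowd of neighbours. The ends of both peaks often lay close together. In Adra1a, the alpha-1A adrenergic receptor gene, the control peak ran from 66704153 to 66704407 on chromosome 14 and the cKO peak from 66704153 to 66704418.

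The fold was higher in the cKO list at 8 of the 10 sites, and the −log10 q at all 10. Over all 27 overlapped control peaks, those in Sfi1, Gm38510 and Sp140 included, these counts were 19 and 25. Of the 10 sites, Prickle1 differed most. In this planar cell polarity gene (chromosome 15, 93526187 to 93526436 in controls) the fold was 2.11 in controls and 3.15 in cKO, with a −log10 q of 0 and 5.99. In the deubiquitinase gene Usp24 it was 1.84 and 2.41 (−log10 q 0.00436 and 3.94). In Polb, which encodes the DNA polymerase of base excision repair, it was 1.97 and 2.35 (0.161 and 4.05), and in Adra1a 1.78 and 2.04 (1.10 and 5.27). These 4 sites had the highest cKO −log10 q of all shared peaks. In cKO 6 of the 10 sites had a q-value under 0.05, and in controls 0 did. Over all peaks in genes shorter than 200 kb, 22.1% did in cKO and 1.92% in controls.

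Apmap (2.25 in controls and 2.59 in cKO), 4921524J17Rik (2.43 and 2.57), the tubulin carboxypeptidase gene Agbl2 (2.15 and 2.59) and Ranbp3l (1.61 and 1.64) were also higher in cKO. Cryz, a quinone reductase gene (2.61 and 2.59), and the F-box gene Fbxo47 (2.44 and 2.37) were not. The depth of each pooled list is unknown, and −log10 q at a given fold grows with depth, so these pairs are a description of 2 lists. Fbxo36 held a peak in each list at different places, with folds of 3.06 in controls and 2.59 in cKO, and brought the genes with peaks in both lists to 14.

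**Figure D4:**
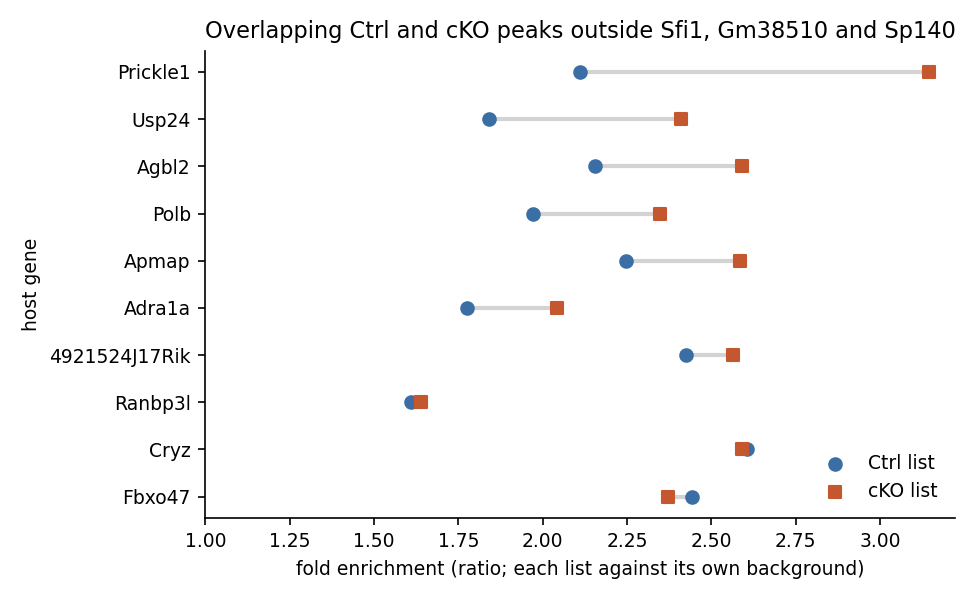
Fold enrichment of the 10 overlapping pairs outside Sfi1, Gm38510 and Sp140, control as circles and cKO as squares, 1 row per host gene. The cKO value is the higher in 8 rows, most in Prickle1 (2.11 and 3.15), and the lower in Cryz and Fbxo47.

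Peaks were then counted in 28 gene lists, against the 4.96% of genes with eligible sequence that held a cKO peak and the density of 1.54 per Mb over all eligible sequence. None of the 28 lists had a density interval wholly above or below that value, and the lists share genes. The solute carrier transporters held the most peaks, with a cKO peak in 22 of 308 genes (7.14%, 2.07 per Mb, 1.30 to 3.13). Of these 22 peaks, 10 had a q-value under 0.05, where 22.1% of the 691 cKO peaks did. They were led by Slc41a2, Slc9a8 and Slc66a1, a lysosomal amino acid transporter gene (3.66).

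Motor proteins followed. Kinesins had 4 of 33 genes with a cKO peak (12.1%, 2.90 per Mb, 0.941 to 6.76), Kif3c, the mitotic kinesin gene Kif11 (3.45) and Kif5c among them. Myosins had 5 of 33, led by Myo15 (3.40), Myo10 (3.34) and Myo7a (3.27), the first and last being genes of inner ear hair cells. Dynein chains had 1 of 10, in Dnah1 (2.78). Of the 11 motor peaks, 2 of 5 in kinesins had a q-value under 0.05, 0 of 5 in myosins and 0 of 1 in dyneins. Over all 691 cKO peaks 22.1% did, and these counts are too small to compare the families.

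Ubiquitin ligases and proteases had 18 of 257 genes, led by Usp15 (3.55), Trim33 (3.32, −log10 q 3.99) and Fbxo40 (3.06), and 3 genes with a control peak, Fbxo36, Fbxo47 and Usp24. Zinc finger genes had 9 of 366 (2.46%, 1.48 per Mb), led by Zfp936, Zfp148 (3.01) and Zfp982 (2.77). Their low share of genes went with a median length of 20.6 kb, and their density was near that of all eligible sequence. Protein kinases had 8 of 86, led by Prkaa2, a catalytic subunit gene of the energy sensor AMPK (3.55), Stk24 (3.08) and Stk25 (3.08, −log10 q 4.13). Protein phosphatases had 6 of 95, led by Ptpn12 (3.83, −log10 q 5.73), Ptpn3 (3.34) and Ppp1r16a (3.13). In the order given, 4 of 18, 3 of 10, 4 of 8 and 2 of 6 peaks had a q-value under 0.05. Of all 691 cKO peaks 22.1% did.

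Chromatin modifiers and remodellers had 9 of 97 genes (9.28%, 1.86 per Mb, 0.851 to 3.53). Smarcal1, a DNA fork remodeller gene, had a fold of 3.53, the H3K36 demethylase gene Kdm2b 3.25 and Setd4 3.10. Nuclear receptors had 3 of 29, Ppard (3.14), Esrrb with 2 peaks (3.13 and 2.88) and Nr5a2 (2.81). Wnt, BMP and TGF-beta genes had 4 of 58, led by the Wnt co-receptor gene Lrp5 (3.52), Bmp7 and the Wnt effector gene Tcf7l2 (2.91). In the order given, 3 of 9, 0 of 4 and 1 of 5 peaks had a q-value under 0.05. Of all 691 cKO peaks 22.1% did.

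**Figure D5:**
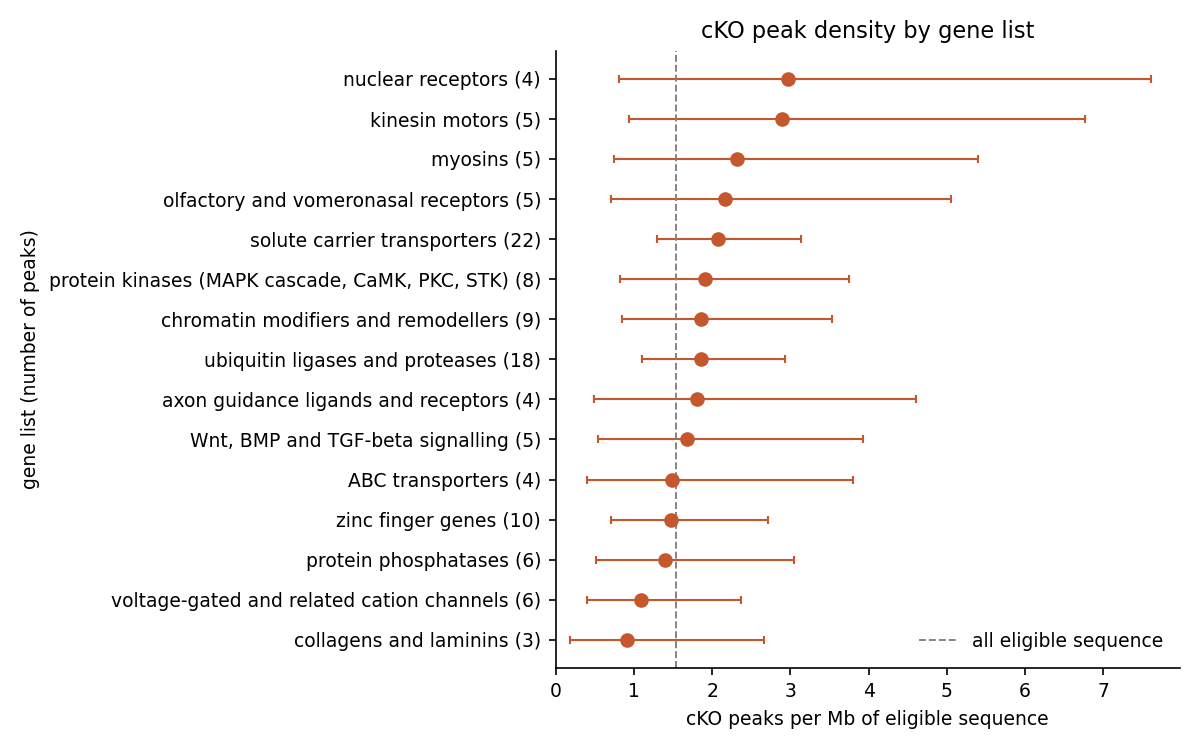
cKO peaks per Mb of eligible sequence in 15 gene lists with at least 3 peaks, with exact Poisson 95% intervals and the number of peaks in brackets; the dashed line is the density over all eligible sequence, 1.54 per Mb. Each interval spans the line.

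Genes of neuronal signalling gave counts on both sides of the 4.96% of all genes. Voltage-gated and related cation channels had 6 of 110 genes with a cKO peak (5.45%, 1.09 per Mb, 0.399 to 2.36), led by Cacng3, an AMPA receptor auxiliary subunit gene (3.56), the potassium channel gene Kcnc2 (3.17) and Cacng7 (2.85). Axon guidance genes had 4 of 45, led by Slit1 (3.06, −log10 q 0.171), Ephb2 (3.04, 0.277) and Plxnc1 (2.94, 0.0910). Glutamate and GABA receptors had 1 of 23, in the NMDA receptor subunit gene Grin3a (2.93), and synaptic vesicle genes 1 of 54, in Syt17 with 2 peaks (2.80 and 2.87). ABC transporters had 4 of 47, Abca16 (2.95) and Abcg2 (2.92) among them. Collagens and laminins had 3 of 44, led by Col4a2 (3.05), and ADAM metallopeptidases 2 of 33, led by Adam32 (3.13). Olfactory and vomeronasal receptors had 4 of 138, led by Vmn2r36 (3.22), cytochrome P450 genes 1 of 72, in the brain cholesterol hydroxylase gene Cyp46a1 (2.82), and phosphodiesterases and adenylyl cyclases 1 of 23, in Pde5a (2.07). A q-value under 0.05 was held by 1 of 6 channel peaks and 1 of 4 ABC transporter peaks. In the other lists from axon guidance genes to adenylyl cyclases 0 peaks had one, where 22.1% of the 691 cKO peaks did.

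The lists of cell type markers were small, with 8 to 16 genes each, so their counts place little beside the 4.96% of all genes. For excitatory neurons and cortical layers the count was 0 of 16 genes, for astrocyte markers 0 of 8 and cadherins and protocadherins 0 of 21, and the upper limits on their densities, 3.24, 13.3 and 2.59 per Mb, all lay above 1.54. Interneuron markers had 1 of 11, in Kcnc2 (−log10 q 0.950), and oligodendrocyte markers 1 of 11, in Tcf7l2 (0.176). Microglial and vascular markers had 2 of 10, the integrin gene Itgam (fold 2.82, −log10 q 0.197) and the phosphatase gene Inpp5d (2.71, 1.98). In controls 24 of the 28 lists held 0 peaks.

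Peaks on both sides of each limit of the choice had these values. Just under 200 kb were cKO peaks in Morc1 (199.7 kb, fold 2.31) and Svil (198.8 kb, 2.75), and just over it those in Pcbp3 (200.3 kb, 2.81) and Dnah12 (201.2 kb, 2.80). In controls Atp9b (199.9 kb, 2.46) and Scn1a (170.1 kb) were the nearest below, and Gm7592 (228.8 kb) with 2 peaks (2.63 and 1.94) the nearest above. The nearest cKO peaks to a gene start or end that still counted lay in Pltp, 5004 bp away (2.92), and Fndc1, 5058 bp away (2.86), and the nearest left out in Aldh3b3, at 4965 bp (2.83), and Hhipl2, at 4958 bp (3.33). In controls these were Srsf4 at 5368 bp (2.42) and Sp140 at 5446 bp (1.75), against A530032D15Rik at 4531 bp (1.76) and Sp110 at 4310 bp (1.98).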

How the data were processed

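H3K36me2 and input chromatin were sequenced from 2 genotypes, with 3 libraries of each kind per genotype. Cutadapt, Bowtie2 2.4.4, MACS2 and mm10 were named without roles, per the submitters' processing notes, and the peak-calling command is not stated in those notes. Per the labels, all 6 libraries of a genotype name the same list of broad peaks. The deposited fold enrichment is a ratio of immunoprecipitated reads to local background. The deposited −log10 p and −log10 q are the caller's, and the score deposited by the authors was not used. Depth per library was unknown, so a list's length and its q-values may depend on it.

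Peaks were placed by midpoint with the RefSeq gene table of GRCm38.p6 (20897 protein-coding genes shorter than 200 kb) and converted to 1-based coordinates. Strand and internal starts came from RefSeq start windows. Overlap meant at least 1 bp. A q-value under 0.05 or a −log10 q of at least 2 served as the thresholds. Shares carry Wilson, densities exact Poisson and medians order-statistic 95% intervals, for counting error alone. Peaks and genes are not replicates, so no test across animals was run. The rule for members uses position alone, but that rule, the 28 gene lists and the alternatives were chosen with earlier results of these data known. Genes were named by a rule: the 15 highest folds, 10 highest −log10 q and 5 widest peaks of each list, hosts with at least 3 peaks, the 12 shared peaks of highest −log10 q, up to 3 genes per gene list and the peaks nearest each limit. Some genes and 1 gene list that this rule covers are not reported here. The placement code recovered 593 of 593 simulated peaks and 307 of 307 planted overlaps, with 1 false overlap among 286. Calculations used Python 3.11.15, numpy 2.4.6, pandas 2.3.3, scipy 1.17.1 and matplotlib 3.10.9.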

Additional observations from a re-analysis of the deposited data

How the results depend on the processing

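No paired analysis was possible because the 3 replicates of a genotype share a single peak list, and leaving out a replicate was not possible either. Of 180 values recomputed under the alternatives, 141 stayed within the interval of the reported value or within 1.5 times a reported count, 85 of 98 for cKO and 56 of 82 for controls. Other length limits, other distances from a gene boundary, autosomes alone, a stricter or looser overlap rule and peaks wholly inside the eligible sequence moved none of the values recomputed with them.

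Control values rested on few places. Leaving out peaks with 3 or more neighbours within 100 kb, and equally without Sfi1, Gm38510 and Sp140 (an alternative chosen after seeing the data), 24 control peaks remained, at 0.0536 per Mb, with a median fold of 2.47, a median width of 219 bp, a median −log10 q of 0.000539, 0% at a q-value under 0.05 or a −log10 q of at least 2, and 10 peaks overlapped in either list. The cKO density without grouped peaks was 1.42 per Mb. With peaks under 5000 bp apart joined, 31 control peaks remained at 0.0693 per Mb, with a median fold of 2.42 and width of 242 bp, and 17 peaks were overlapped in either list.

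Restriction to a −log10 q of at least 2 left 1 control peak in 1 gene (0.00223 per Mb, −log10 q 2.10) and 89 cKO peaks in 87 genes (0.199 per Mb), with 0 overlapped in either list. For cKO the median fold became 3.13, the width 195 bp and the −log10 q 2.82. The density ratio of shorter to longer genes rose from 1.66 to 3.12, and that of hosts under 50 kb to hosts of 150 kb and more from 1.77 to 6.93. The last ratio was not computed for other length limits. The depth of each list is unknown, and a −log10 q of 0 was held by 18 of 52 control and 75 of 691 cKO peaks.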

Other observations

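Some peaks inside short genes also lay in a second, noncoding gene. In cKO 29 of 691 did (4.197%, Wilson 95% interval 2.94 to 5.96), and in controls 1 of 52, in the pseudogene Gm17669 inside Spire1. The cKO cases covered 23 long noncoding RNA and 6 pseudogene entries. Those with the highest −log10 q were A930005G22Rik inside Msi1, which encodes a neural stem cell RNA-binding protein (−log10 q 2.90, fold 3.29), the pseudogene LOC108167553 inside the telomere protein gene Terf2 (2.76, 3.12) and Gm39648 inside Gm973 (2.19, 2.71). Both cKO peaks of Klhl14 lay in the long noncoding RNA gene Gm31646 (folds 3.11 and 3.15). These genes were named after their values were seen.

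The narrowest width, 147 bp, was shared by 84 of these cKO peaks and by 459 of 3491 in the whole cKO list. Of the 84, 8 had a q-value under 0.05, where 22.1% of the 691 cKO peaks did. Among the 15 highest cKO folds it was held by Kif3c, Tbc1d9b and Slc9a8. The cKO peaks of lowest fold, 1.25 and 1.39, lay 1.71 kb apart in Tmem267, and the higher −log10 q of that pair was 2.66.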
